A study of Mus musculus with 10 samples.

Results

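The 10 regional progenitor homeobox genes Dbx1, Dbx2, Dlx1, Dlx2, Pax3, Pax6, Pax7, Nkx6-1, Irx3 and Lhx2 were followed by gene symbol through 6 libraries of cultured mouse neural stem cells. They are 10 of the 17919 genes in each table, and each symbol had 1 row. The cells were taken from the ventral midbrain of ICR mice on embryonic day 10, received Lin28a (an RNA-binding protein known for blocking let-7 microRNAs) or a mock control by lentivirus, and were split every 4 days. RNA-seq covered control and Lin28a cultures at passage 1 (P1) and passage 3 (P3), and sequencing of polysome RNA, the RNA carried by several ribosomes, covered both cultures at P3. Each combination was 1 library, so there is no spread between replicates, no test and no p-value, and every difference below describes these libraries. Which promoter drives Lin28a, and whether embryos were pooled, is not stated by the labels.

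Homeobox genes encode transcription factors that bind DNA through a homeodomain. In the neural tube, signals from the floor plate and roof plate set up stripes of progenitors, and each stripe expresses its own combination of such factors and gives rise to its own neurons. Dbx1 and Dbx2 mark intermediate progenitors, Nkx6-1 ventral ones, Pax3 and Pax7 dorsal ones, Pax6 and Irx3 broad intermediate territories, Dlx1 and Dlx2 the progenitors of forebrain GABA neurons, and Lhx2 the forebrain and eye.

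Levels are given as FPKM (fragments per length of gene and per size of library) for RNA-seq and as RPKM (reads scaled likewise) for polysome RNA. The total depth is unknown, so no level has a counting interval. Genes at 1 or more numbered 12338 to 12461 per RNA-seq library and 12028 and 12098 in polysome RNA. The Lin28a transcript matched its labels, at 478 and 104 FPKM in the P1 and P3 Lin28a cultures and at most 0.128 in control. All 11 neural progenitor markers, among them Sox2 and Nes, were at 1 FPKM or more in the 4 RNA-seq libraries. For the labelled region, the midbrain factors Otx2 (30.3 to 72.9 FPKM) and En1 (5.83 to 24.5 FPKM) were present, and none of the 9 hindbrain and trunk Hox genes in the tables reached 1. Nkx2-1, a factor of the ventral forebrain, was at 32.1 to 97.2 FPKM.

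Of the 10 genes, 8 were measured, meaning that one of the libraries compared had them at 1 or more; Pax3 and Pax7 were not. Ratios are log2 of (level + 1), which understates differences of low genes, and a gene is counted as higher or lower past 2-fold. From P1 to P3 in control, 4 of the 8 genes were lower (Dbx1, Dlx1, Dlx2 and Nkx6-1), against 8.14% of all 13011 genes measured, and 2 were higher (Dbx2 and Pax6), against 11.5%, so 6 of 8 differed past 2-fold where 19.6% of all genes did. The Lin28a culture gave the same 4 lower and 2 higher genes, against 4.8% and 8.38% of 12850 genes, or 13.2% either way. Irx3 and Lhx2 stayed within 2-fold in both. At P1 none of the 8 differed past 2-fold between Lin28a and control, where 0.231% of 12564 genes did. At P3 the Lin28a culture had 3 higher genes (Dbx1, Dlx1 and Dlx2, background 1.31% of 12716) and 1 lower gene (Dbx2, background 1.34%), and 2.65% of all genes differed either way. Polysome RNA called the same 3 higher, against 0.952% of 12289 genes, and the same 1 lower, against 0.122%, with 1.07% of all genes either way. In polysome RNA Dbx1, Dlx1 and Dlx2 were under 1 in control and were measured only through the Lin28a library where they are high, as were Dlx1 and Dlx2 in RNA-seq at P3. Dlx1, Dlx2 and Nkx6-1 likewise entered the passage comparison in control only through P1, and Dbx2 that in Lin28a only through P3. Some genes of the lists below entered in the same way, so these counts describe the genes measured, and their distance from the background share is no support. The comparison of Lin28a with control at P3 and that of P3 with P1 in control use the same P3 control library, so they are not independent of each other. The 10 genes were proposed with results of these libraries known, and their counts are not evidence about homeobox genes as a class.

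**Figure D1:**
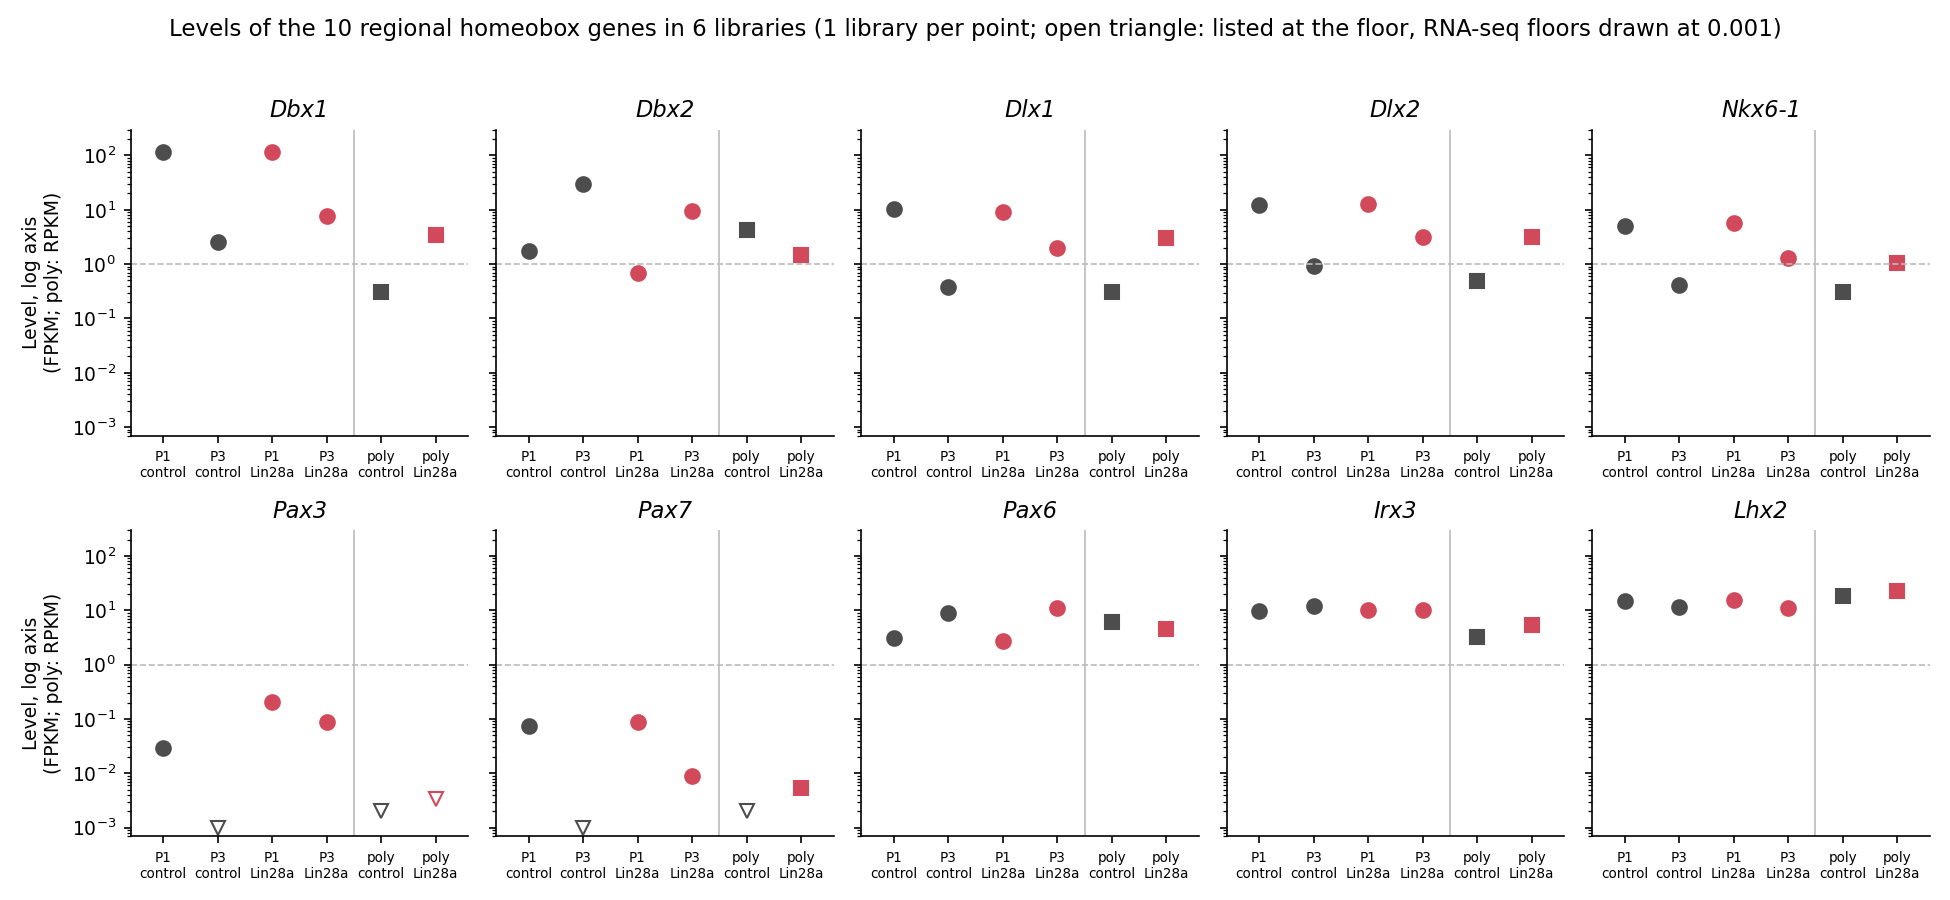
Level of each gene in the 6 libraries on a log axis (FPKM for RNA-seq, circles; RPKM for polysome RNA, squares; grey control, red Lin28a; 1 library per point; dashed line at 1; open triangles are genes listed at the floor, with RNA-seq floors drawn at 0.001). In control Dbx1 is at 118 FPKM at P1 and 2.58 at P3 while Dbx2 is at 1.73 and 29.3, and Pax3 and Pax7 stay under 0.21 throughout.

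Dbx1 was the most abundant of the 10 genes at P1. It is a factor of intermediate progenitors that give rise to commissural interneurons, and in the control culture it stood at 118 FPKM at P1 and 2.58 at P3. The Lin28a culture had 116 FPKM at P1 and 7.71 at P3, and polysome RNA had 0.306 RPKM (control) and 3.44 (Lin28a). Both P1 libraries were thus high and alike, both P3 libraries were low, and at P3 the Lin28a library was the higher in each assay. The passage log2 ratio was -5.05 in control, the 4th lowest of 13011 genes, and -3.75 in Lin28a, the 4th lowest of 12850. In the deposited values that is 45.7-fold lower in control and 15.0-fold lower in Lin28a. At P3 the log2 ratio of Lin28a to control was 1.28 in RNA-seq (2.99-fold) and 1.77 in polysome RNA (11.3-fold), the latter ranking 9th from the top among 12289 genes. Dbx1 was under 1 RPKM in control polysome RNA and entered that ranking only through the Lin28a library. The rank is thus no support, and the 11.3-fold rests on a low value of no stated precision.

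Dbx2 had the opposite course. This paralog of Dbx1 is known from a wider band of intermediate progenitors. In the control culture it stood at 1.73 FPKM at P1 and 29.3 at P3, and in the Lin28a culture at 0.673 and 9.61. Polysome RNA had 4.22 RPKM (control) and 1.49 (Lin28a). Both P3 libraries were above both P1 libraries, and Lin28a was below control at each passage and in each assay. Its passage log2 ratio was 3.47 in control (16.9-fold higher) and 2.66 in Lin28a (14.3-fold higher). The log2 ratio of Lin28a to control was -0.71 at P1, within 2-fold on this scale although the deposited values differ 2.57-fold, and with a pseudocount of 0.1 it was -1.24, past 2-fold. At P3 it was -1.52 in RNA-seq and -1.07 in polysome RNA, the 33rd lowest of 12716 genes and the 10th lowest of 12289.

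Both values are per gene length, so the pair can be set against each other within a library. Dbx1 was 68.1 times as high as Dbx2 in P1 control and 172 times in P1 Lin28a. At P3 the order had turned in control, where Dbx2 was 11.4 times as high as Dbx1. In P3 Lin28a the pair was close to even, with Dbx2 at 1.25 times Dbx1. In polysome RNA Dbx2 was 13.8 times as high as Dbx1 in control, while in Lin28a Dbx1 was 2.30 times as high as Dbx2.

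The promoter windows of the pair are shown because these paralogs are the 2 genes with the largest and opposite passage ratios among the 10. Each window holds the 250 bases before and the 50 bases after the start site, from RefSeq on GRCm38.p6, and both genes lie on the minus strand (chr7:49636786-49637085 for Dbx1, chr15:95654722-95655021 for Dbx2). The letters run 5′ to 3′ along the gene, and capitals mark matches to the motifs searched on both strands: TAATTA, a homeodomain core, CAGCTG and CAGATG, E-boxes of the kind bound by proneural factors, and TATAAA, the TATA box.
Dbx1: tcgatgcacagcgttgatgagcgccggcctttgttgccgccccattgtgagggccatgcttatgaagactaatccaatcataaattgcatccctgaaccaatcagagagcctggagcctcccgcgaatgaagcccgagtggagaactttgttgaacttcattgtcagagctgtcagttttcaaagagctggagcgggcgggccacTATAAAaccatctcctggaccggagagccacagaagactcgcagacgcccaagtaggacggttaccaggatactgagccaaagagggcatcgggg
Dbx2: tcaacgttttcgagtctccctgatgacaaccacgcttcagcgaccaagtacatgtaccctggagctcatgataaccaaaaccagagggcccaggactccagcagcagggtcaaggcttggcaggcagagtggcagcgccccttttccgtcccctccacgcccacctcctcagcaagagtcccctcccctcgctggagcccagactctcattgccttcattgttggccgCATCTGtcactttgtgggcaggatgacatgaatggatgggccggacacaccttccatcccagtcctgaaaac
The Dbx1 window held 1 TATAAA match, 45 bases before the start site, and 15 CpG. Over all windows, for genes of either strand, TATAAA was most frequent at window bases 221 to 230, closer to the start site than this match. The Dbx2 window held 1 CAGATG match, read on the opposite strand 22 bases before the start site, and 10 CpG. Among 32851 windows of 300 bases, 13.6% held TATAAA, 17.2% CAGATG, 16.3% CAGCTG and 5.29% TAATTA, and the median window held 7 CpG. Windows were found for 9 of the 10 genes (not Pax3). Dlx1, Dlx2 and Nkx6-1 had none of the 4 motifs and 27, 29 and 40 CpG. Irx3 (14 CpG), Pax6 (18 and 16) and Pax7 (17) had none of the motifs either, so this lack did not set the lower genes apart. Of the Lhx2 windows, that with 34 CpG had none and that with 29 CpG held 1 CAGATG match. These matches describe the letters alone, and the libraries hold no measurement of binding.

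Dlx1 and Dlx2, adjacent genes that drive the GABA neuron programme of the forebrain, were both lower at P3, and less so with Lin28a. Dlx1 stood at 10.1 FPKM at P1 and 0.386 at P3 in the control culture, at 8.95 and 1.95 in the Lin28a culture, and at 0.313 (control) and 3.04 RPKM (Lin28a) in polysome RNA. Dlx2 stood at 12.4 and 0.936 FPKM in the control culture, at 12.8 and 3.21 in the Lin28a culture, and at 0.495 (control) and 3.22 RPKM (Lin28a) in polysome RNA. Both genes were alike at P1, lowest in the P3 control culture and in between in P3 Lin28a. Their passage log2 ratios were -3.01 and -2.79 in control and -1.75 and -1.71 in Lin28a. At P3 the log2 ratios of Lin28a to control were 1.09 for Dlx1 and 1.12 for Dlx2 in RNA-seq and 1.62 and 1.498 in polysome RNA. The Dlx1 to Dlx2 level ratio stayed between 0.413 and 0.943 over the 6 libraries.

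The antisense neighbour and the other Dlx genes measured were also lowest in the P3 control library among the RNA-seq libraries. Dlx1os, the antisense transcript between Dlx1 and Dlx2 (Dlx1as in RefSeq), stood at 11.7 FPKM at P1 and 0.402 at P3 in the control culture, at 2.73 at P3 in the Lin28a culture, and at 0.497 (control) and 5.46 RPKM (Lin28a) in polysome RNA. The kit named keeps strand, but whether counting used it is not given, so reads of Dlx1 and Dlx1os may be split between them. Dlx5, a later factor of the same programme, went from 6.49 FPKM at P1 to 0.327 at P3 in control and from 7.15 to 1.62 in Lin28a. Dlx6 was at 1.34 and 0.046 FPKM in control and at 1.57 and 1.06 in Lin28a, so it passed 2-fold with passage in control only. The difference of its 2 passage ratios, Lin28a minus control, was 0.84, within 2-fold. Its P3 log2 ratio of Lin28a to control, 0.98, was just within 2-fold on this scale. The deposited P3 values, 1.06 against 0.046 FPKM, lie much farther apart, but the lower one has no stated precision.

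Midbrain GABA neuron genes were low at P3 as well. Of the 13 measured genes of the Dlx and GABA neuron list other than Dlx1 and Dlx2, 12 were lower at P3 in control and none higher, and 8 were lower in Lin28a, again with none higher. The median over all 15 was -2.43 in control and -1.21 in Lin28a, beside 0.00 and -0.01 over all genes. Tal2, which selects GABA neurons in the midbrain, had passage log2 ratios of -3.82 and -2.29, and Gad1, which makes GABA, -2.61 and -1.03. At P3, 4 of 9 other measured genes were higher in Lin28a (Dlx1os, Gad1, Gata2 and Tal2) and none lower.

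Nkx6-1, a ventral progenitor factor used in motor and red nucleus neurons, was low at P1 and lower at P3. It stood at 5.03 FPKM at P1 and 0.421 at P3 in the control culture, at 5.64 and 1.32 in the Lin28a culture, and at 0.301 (control) and 1.06 RPKM (Lin28a) in polysome RNA. Both P1 libraries were above both P3 libraries, and Lin28a was above control at P3 in each assay. The passage log2 ratio was -2.09 in control and -1.52 in Lin28a. The P3 ratios of Lin28a to control, 0.71 in RNA-seq and 0.66 in polysome RNA, were within 2-fold. They became 1.45 and 1.53 with a pseudocount of 0.1, and the deposited values differ 3.14-fold and 3.51-fold.

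Its paralog Nkx6-2, of a neighbouring progenitor stripe and of oligodendrocytes, was not lower at P3. Nkx6-2 stood at 21.6 FPKM at P1 and 30.6 at P3 in the control culture, and at 20.8 and 48.9 in the Lin28a culture. It was 4.29 times as high as Nkx6-1 in P1 control and 72.8 times in P3 control, and 3.70 and 37.0 times in Lin28a. Other ventral factors resembled Nkx6-1: of 8 measured ventral genes besides it, 6 were lower at P3 in both cultures, among them the floor plate factors Foxa2 (-3.40 in control, -1.86 in Lin28a) and Lmx1a (-2.48, -1.10), and Nkx6-2 alone was higher past 2-fold, in Lin28a (1.19).

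Pax3 and Pax7, which mark dorsal progenitors, neural crest and muscle precursors, were near 0 in all 6 libraries. In the control culture Pax3 stood at 0.0293 FPKM at P1 and was listed at the floor, the lowest value of a library, at P3. In the Lin28a culture Pax3 was at 0.208 and 0.0864, and both polysome libraries list it at the floor. Pax7 stood at 0.0728 FPKM and the floor in the control culture, at 0.0863 and 0.00881 in the Lin28a culture, and in polysome RNA at the floor (control) and 0.00529 RPKM (Lin28a). No fold is given at such levels. Muscle markers were as scarce, with a summed level of 5 genes of 0.236 to 0.754 FPKM, and of the neural crest markers Foxd3, Tfap2a and Tfap2b none passed 0.0832 FPKM. Zic1 and Msx1, of the alar and dorsal list, were present, which by itself is no sign of dorsal cells. Zic1 went from 15.6 FPKM at P1 to 1.23 at P3 in control and from 16.1 to 2.76 in Lin28a. Msx1 went from 7.49 to 2.02 in control and from 8.28 to 2.28 in Lin28a. Of 7 measured genes of this list 4 were lower at P3 in control, and of 8 in Lin28a 3 were.

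Pax6 was higher at P3 in both cultures, past 2-fold. This paired box factor of radial glia and intermediate progenitors stood at 3.08 FPKM at P1 and 9.01 at P3 in the control culture, at 2.69 and 11.2 in the Lin28a culture, and at 6.08 (control) and 4.43 RPKM (Lin28a) in polysome RNA. The P3 libraries were above the P1 libraries, and Lin28a was above control at P3 in RNA-seq but below it in polysome RNA. The passage log2 ratios were 1.29 in control and 1.72 in Lin28a, and the former fell within 2-fold (0.79) with a pseudocount of 5. The P3 ratios of Lin28a to control were 0.28 in RNA-seq and -0.38 in polysome RNA, both within 2-fold. RefSeq lists 8 curated Pax6 transcripts, and the table gives 1 value under 1 of their accessions. Among the other paired box genes Pax8 alone was measured, with passage log2 ratios of -1.47 in control and -1.19 in Lin28a. Pax2 stayed at or under 0.0821 and Pax5 at or under 0.687.

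Irx3 and Lhx2 held their levels. Irx3, an Iroquois factor of intermediate progenitors, stood at 9.89 FPKM at P1 and 11.8 at P3 in the control culture, at 10.1 and 10.2 in the Lin28a culture, and at 3.22 (control) and 5.33 RPKM (Lin28a) in polysome RNA. The 4 RNA-seq values lay close together, and the polysome ratio of Lin28a to control, 0.58, was the farthest from 0 of its 5 ratios. The related genes Irx1, Irx2 and Irx5 also stayed within 2-fold in each comparison, and all 4 measured Iroquois genes had a median passage ratio of 0.44 in control. Lhx2, a LIM homeobox factor, stood at 14.9 FPKM at P1 and 11.4 at P3 in the control culture, at 15.4 and 11.2 in the Lin28a culture, and at 18.4 (control) and 22.2 RPKM (Lin28a) in polysome RNA. Its passage log2 ratios were -0.36 and -0.43.

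Other genes of the LIM list differed among themselves. Lhx1 went from 6.68 FPKM at P1 to 0.0518 at P3 in control (6.72 and 1.26 in Lin28a), and Lhx5 from 12.3 to 0.274 (12.3 and 1.19). Lhx9, the closest relative of Lhx2 on the list, was at 1.20 and 0.0606 FPKM (2.29 and 0.339 in Lin28a). Of 12 measured LIM genes and cofactors besides Lhx2, 7 were lower at P3 in each culture and 1, the cofactor Lmo1, was higher. The 4 others, the cofactors Ldb1, Ldb2, Lmo3 and Lmo4, stayed within 2-fold in both cultures as Lhx2 did, with Lmo3 at -0.36 and Lmo4 at 0.15 in control. Of 10 measured forebrain genes besides Lhx2, 7 were lower in each culture, with Fezf2 at -2.37 in control and -2.11 in Lin28a.

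**Figure D2:**
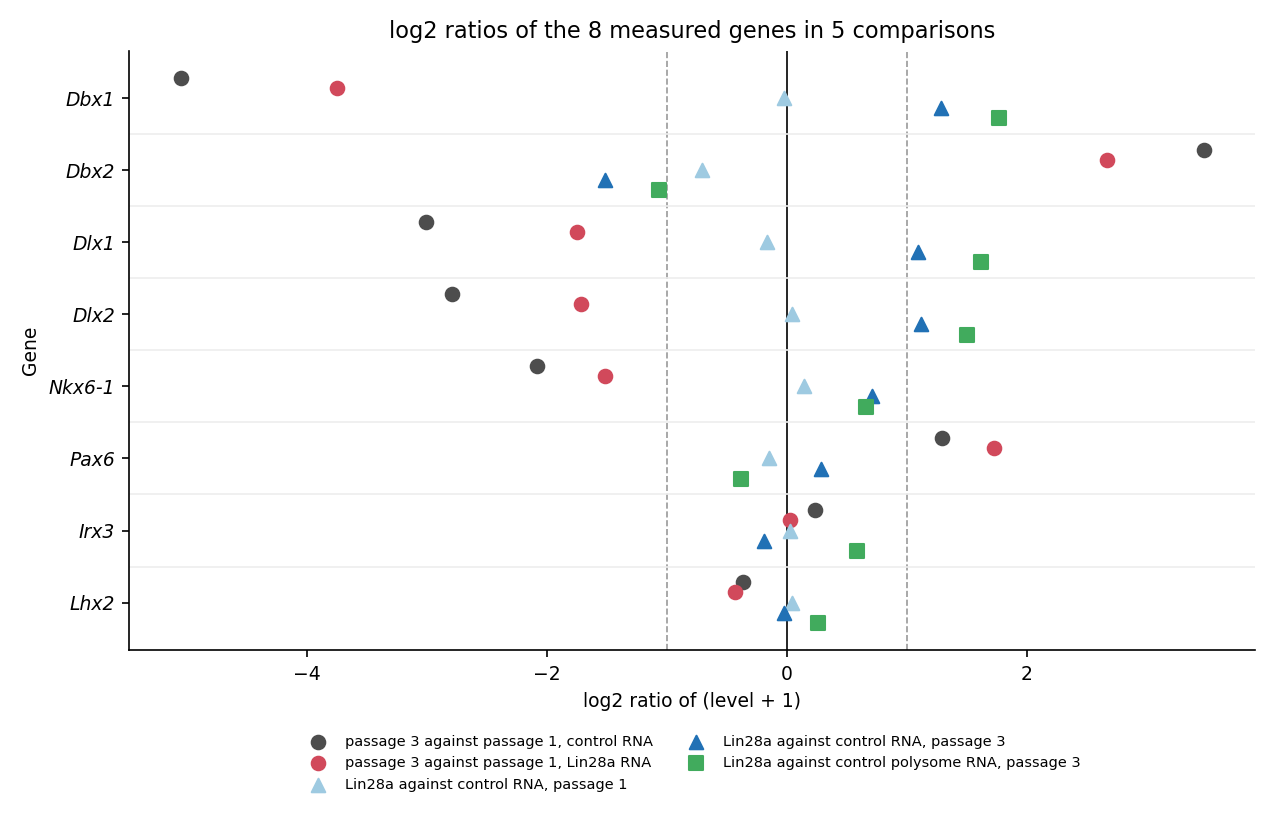
log2 ratio of (level + 1) for the 8 measured genes in the 5 comparisons (1 point per comparison, dashed lines at 2-fold). Dbx1, Dlx1, Dlx2 and Nkx6-1 lie left of the line for passage and right of 0 for Lin28a at P3, Dbx2 lies on the opposite sides, and the P1 ratios of Lin28a to control sit between -0.71 and 0.14.

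The order of levels among the genes turned over with passage. In P1 control it ran Dbx1, Lhx2, Dlx2, Dlx1, Irx3, Nkx6-1, Pax6 and Dbx2, and P1 Lin28a differed only in that Irx3 stood above Dlx1, by 10.1 to 8.95 FPKM. In P3 control the order was Dbx2, Irx3, Lhx2, Pax6, Dbx1, Dlx2, Nkx6-1 and Dlx1, and in P3 Lin28a it was Pax6, Lhx2, Irx3, Dbx2, Dbx1, Dlx2, Dlx1 and Nkx6-1. With 1 library each, no pair of neighbours in these orders can be said to differ.

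The passage ratios of the 2 cultures, which share no library, had the same sign for all 8 genes. The share of all genes with the same sign was not computed, so this agreement cannot be called particular to these genes. Of the 58 other genes of the regional lists measured in both, 39 were lower past 2-fold in control and 33 in Lin28a, and 31 were lower in both, which is 79.5% of the control list and 93.9% of the Lin28a list. Lmo1 alone was higher in both. The overlap over all genes was not computed either. The difference of the 2 passage ratios, Lin28a minus control, was 1.31 for Dbx1, 1.26 for Dlx1, 1.08 for Dlx2, 0.57 for Nkx6-1 and -0.81 for Dbx2. It thus passed 2-fold for 3 of 8 genes upward and for none downward, against 1.55% and 0.898% of 13138 genes and 2.45% either way. The difference was 0.43 for Pax6, -0.21 for Irx3 and -0.07 for Lhx2.

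**Figure D3:**
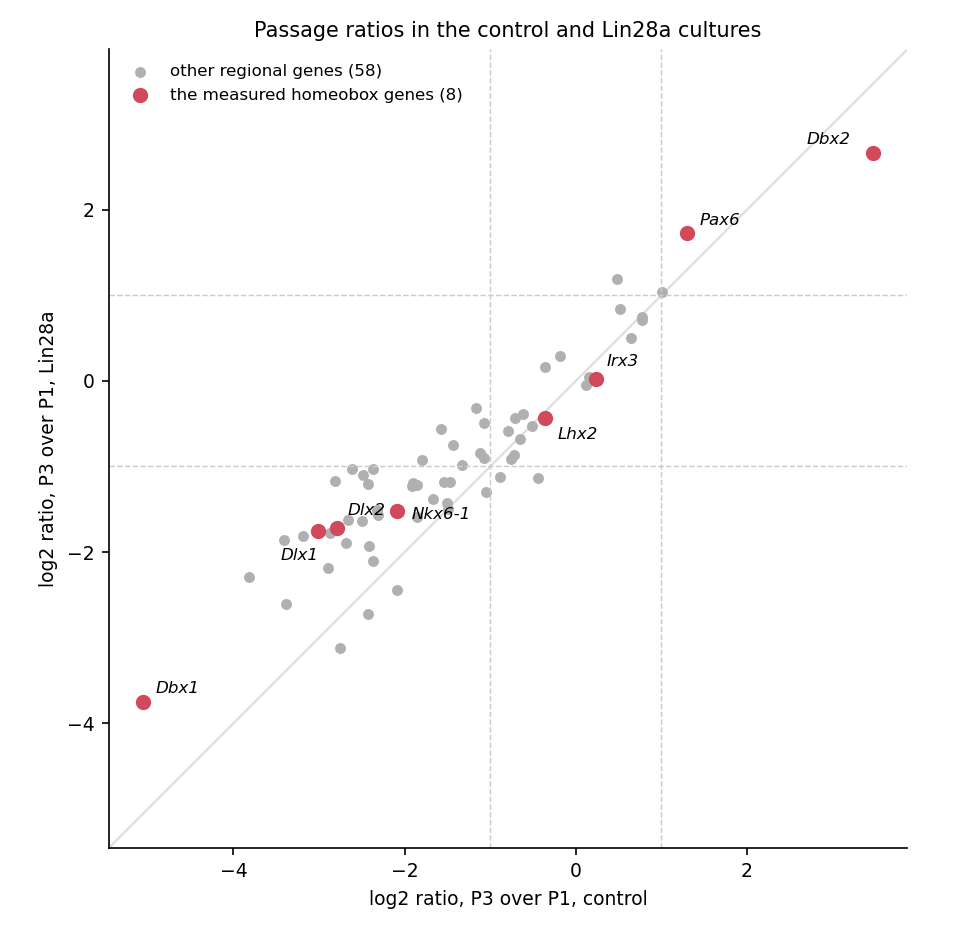
log2 ratio of P3 to P1 in the Lin28a culture against that in control for the 8 measured genes (red) and 58 other regional genes (grey); the diagonal marks equal ratios and dashed lines mark 2-fold. Dbx1 at -5.05 and -3.75 and Dbx2 at 3.47 and 2.66 are the end points of the plot in control.

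In RNA-seq and polysome RNA at P3, the ratios of Lin28a to control had the same sign for 5 of the 8 genes, and Pax6, Irx3 and Lhx2, all within 2-fold in both, were the exceptions. For this pair of assays, too, the same-sign share over all genes was not computed. Of 36 other regional genes measured in both assays, 9 were higher past 2-fold in RNA-seq, 7 in polysome RNA and 7 in both, and none was lower. The genes Lmx1a (1.44 in RNA-seq, 1.28 in polysome RNA), Foxa2 (1.34, 1.15) and Tal2 (1.39, 1.15) were among them. The polysome to RNA difference could be taken for 4 of the 10 genes at 1 or more in all 4 libraries. It was 0.45 for Dbx2, -0.67 for Pax6, 0.78 for Irx3 and 0.28 for Lhx2, none past 2-fold, where 0.709% of 11424 genes were. Dbx1, Dlx1, Dlx2 and Nkx6-1 fell under 1 RPKM in the control polysome library and were not measured for it. Whether both assays used the same cells, and which gradient fractions were taken, is not stated by the labels.

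**Figure D4:**
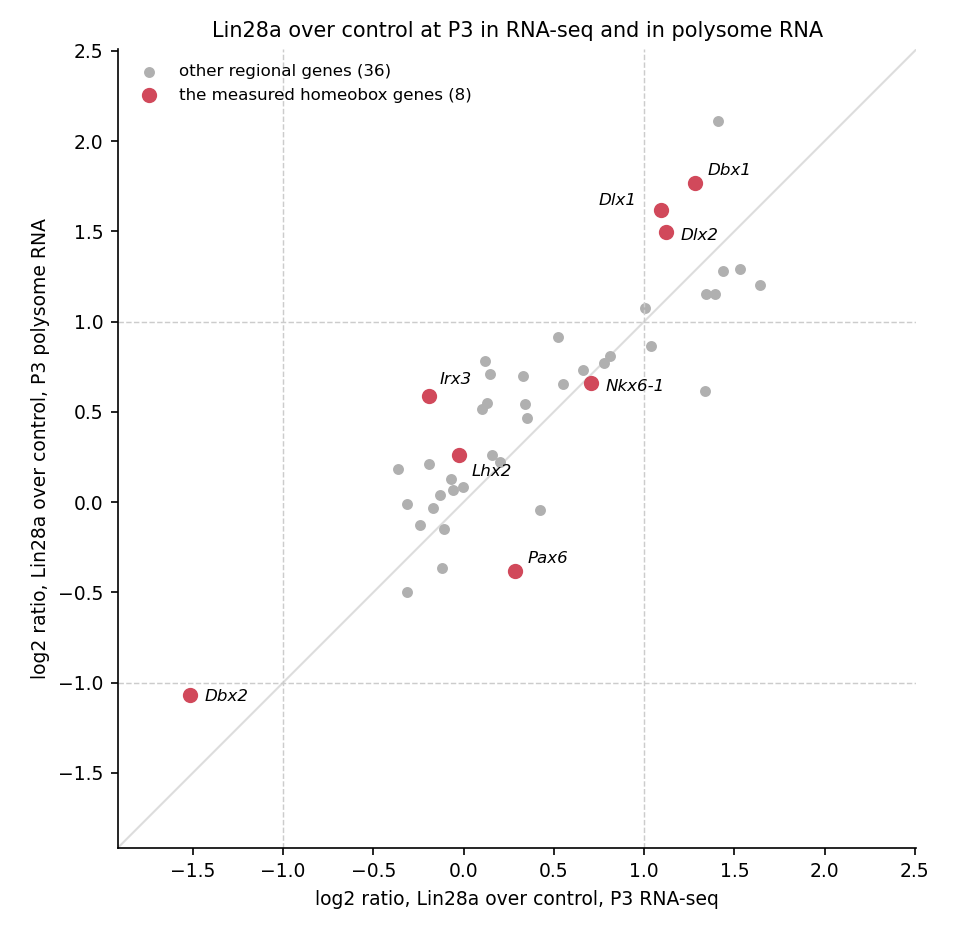
log2 ratio of Lin28a to control at P3 in polysome RNA against RNA-seq for the 8 measured genes (red) and 36 other regional genes (grey); the diagonal marks equal ratios and dashed lines mark 2-fold. Dbx1, Dlx1 and Dlx2 lie above 1 on both axes, as do 7 grey points, and Dbx2 is the 1 point below -1 on both.

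These calls depend on the pseudocount. With 5 in place of 1, none of the 3 genes higher in Lin28a at P3 passed 2-fold in RNA-seq (Dbx1 0.75, Dlx1 0.37, Dlx2 0.47) or in polysome RNA (Dbx1 0.67, Dlx1 0.60, Dlx2 0.58), and Nkx6-1 was within 2-fold for passage in both cultures (-0.89 and -0.75).

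Summed marker levels of several cell types also differed between these libraries. The 11 neural progenitor markers summed to 3580 FPKM at P1 and 6263 at P3 in the control culture and to 3267 and 4359 in the Lin28a culture. Most of each sum came from Fabp7 (1521 and 3418 FPKM in control, 1313 and 1753 in Lin28a) and Vim (1311 and 2046, 1214 and 1745). The sums therefore do not show a broad rise of these markers. Within that list 3 genes were higher and 2 lower at P3 in control, and 2 were higher and 1 lower in Lin28a. The Notch target Hes5 (1.89 in control, 2.21 in Lin28a) and Sox3 (1.88, 1.54) were higher in both, and Fabp7 (1.17, 0.42) in control only. Prom1 (-2.31, -1.17) was lower in both, and Nes was at -1.17 and -0.81. The summed level of 14 neuronal markers was 1216 FPKM at P1 and 305 at P3 in the control culture and 1014 and 524 in the Lin28a culture, so, as for Dbx1, Dlx1, Dlx2 and Nkx6-1, P3 was below P1 and Lin28a above control at P3. Past 2-fold, 13 of 14 were lower at P3 in control and 9 of 14 in Lin28a. The 10 astrocyte markers summed to 435, 4895, 336 and 2299 FPKM and the 14 oligodendrocyte markers to 189, 2328, 114 and 1413, in the same order of libraries, with P3 above P1 and Lin28a below control, as for Dbx2. The 7 mesenchymal markers summed to 64.6, 28.3, 55.0 and 35.1 FPKM. Of these, 5 were lower at P3 in control and 4 in Lin28a, among them Dcn (-2.71 and -1.58), while the collagen gene Col1a2 was higher in both (1.12 and 1.70). Microglial markers summed to at most 0.706 FPKM, with none of 7 at 1 or more. In polysome RNA of control and Lin28a the sums were 254 and 299 RPKM for neuronal, 290 and 214 for astrocyte, 297 and 202 for oligodendrocyte and 12.9 and 22.0 for mesenchymal markers. The part of these shifts in the homeobox results was not tested, and in bulk cultures fewer cells of a type and less RNA per cell cannot be told apart.

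The genes nearest in pattern were found over the 4 RNA-seq libraries, as the distance between log2 profiles centred on their means, among 13137 genes. Nearest to Dbx1 were the neuronal membrane gene Islr2 (0.48), the growth factor Fgf15 (0.85) and the proneural factor Neurog2 (1.03), and no gene came within 0.2. Nearest to Dbx2 were Cmtm5 (0.23), the glial potassium channel Kcnj10 (0.25) and Gpr37l1 (0.28), also with no gene within 0.2. For Dlx1 they were Dusp4 (0.07), Actl6b (0.10) and Lhx1 (0.13), and for Dlx2 Lhx1 (0.08), Srrm4 (0.09) and Podxl (0.12). For Nkx6-1 they were Lemd1, Mfap4 and Nuak2 (0.08 each), and for Pax6 Ero1l (0.08), Npb (0.09) and Evi2a (0.11). Irx3 had 1284 genes within 0.2 and Lhx2 had 1115, so their flat patterns single out no gene.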

How the data were processed

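The 4 RNA-seq and 2 polysome tables were used, and the 4 small RNA libraries were not. RNA-seq values were read as FPKM and polysome values as RPKM made by the authors; the file headers name no unit. Bowtie 1.0.0, TopHat2 2.0.6, Cufflinks 2.1.1 and build mm9 are named, without roles, per the submitters' processing notes. The floor, the lowest value listed, was 4.8e-07 in RNA-seq and 0.00204 and 0.00331 in polysome RNA of control and Lin28a. Whether it stands for no reads or for no estimate was not determined. Per the labels, these libraries were poly(A)-selected, yet the kit named is for total RNA. Depth is unknown.

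Groups came from sample titles. Log2 ratios used a pseudocount of 1 and genes at 1 or more in at least 1 library compared, with Python 3.11.15, numpy 2.4.6, pandas 2.3.3 and matplotlib 3.10.9, and the calculation was tested on simulated data. The genes, the 10 regional and 10 marker lists and the tests were chosen with earlier results of these data known. Named are all 10 genes, their close relatives, up to 4 genes per list with the largest passage ratio in control, and the 3 nearest patterns; others were named after their values were seen. Alternatives were other pseudocounts, minimums, scalings and folds. RefSeq names and promoters are from GRCm38.p6; all 10 accessions matched. As builds differ, no other coordinates are given. Some withheld items are not reported here.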

Additional observations from a re-analysis of the deposited data

How the results depend on the processing

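The 23 ratios of the 10 genes past 2-fold kept their sign under every alternative run, and 322 of 358 recomputed ratios stayed on the same side of the threshold. Another pseudocount, minimum or fold cannot turn the sign of a ratio of 2 libraries, so the kept signs are no support. A changed minimum leaves the ratio of a measured gene as it was, so part of the 322 was fixed in advance. Of 96 recomputed counts 76 stayed within 1.5 times. With a pseudocount of 5, the genes higher with passage in control fell from 2 to 1. The same setting took the genes higher with Lin28a at P3 from 3 to 0 in RNA-seq and in polysome RNA, and those lower in polysome RNA from 1 to 0. It also took the genes with an upward difference of passage ratios, Lin28a minus control, from 3 to 0. With a minimum of 5, the genes higher at P3 went from 3 to 1 in RNA-seq and to 0 in polysome RNA, and the gene lower in polysome RNA was lost (0), because fewer genes were measured. Past 4-fold there was 1 gene higher with passage in each culture, 1 lower in Lin28a, and 0 either way for Lin28a at P3 in either assay. With a pseudocount of 0.1 or at 1.5-fold, 1 gene (Dbx2) was lower with Lin28a at P1. At 1.5-fold, 1 gene was higher (Irx3) and 1 lower (Pax6) in the polysome to RNA difference, and 1 (Dbx2) was lower in the difference of passage ratios. Over all genes, a pseudocount of 0.1 in place of 1 moved the counts for Lin28a at P3 from 166 higher and 171 lower to 343 and 333 in RNA-seq, and from 117 and 15 to 249 and 61 in polysome RNA; a pseudocount of 5 gave 40 and 61, and 20 and 3. Centring turned the 68 higher and 13 lower polysome to RNA differences into 52 and 27. No paired analysis was possible because each group held 1 library, and no library could be left out for the same reason. Depth is unknown, so values under 1 have no stated precision.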
